A study of Mus musculus with 4 samples.

Results

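This account compares 2 arrays, those of cells overexpressing Wnt3a and of cells overexpressing Wnt4, out of the 4 arrays of the series. Both were chosen by their labels, and the compared items are the 1898 miRNA probes that could be used. The cells were MC3T3-E1, an osteoblastic line from mouse calvaria, kept in proliferation medium (alpha-MEM with fetal bovine serum, penicillin and streptomycin). All 4 groups had received an adenovirus vector, which carried the GFP gene (the control), the Wnt4 gene, the Wnt3a gene or the Wnt5a gene. Each group was 1 sample on 1 one-colour array, and the number of cultures behind it and the dose and time of infection are not given in the sources used here. No difference below therefore has a replicate check, and no p-value was computed.

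Wnt proteins are secreted ligands that bind Frizzled receptors. Wnt3a is the textbook activator of the beta-catenin branch, which drives osteoblast commitment, whereas Wnt4 has been tied to beta-catenin-dependent and beta-catenin-independent branches. Mature miRNAs repress mRNAs that pair with their seed, the bases 2 to 8 from the 5′ end, so that miRNAs with one seed share many targets. The comparison addresses which miRNAs differ between cells given 2 ligands of the same family through the same vector.

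On the Wnt3a array 7 miRNAs were at least 2-fold lower than on the Wnt4 array and 3 were at least 2-fold higher, among 544 miRNAs detected on both. The lower ones were both arms of miR-140, miR-146b-5p, miR-503-5p, both arms of miR-322 and miR-708-5p. The higher ones were miR-7036a-5p, miR-6913-5p and miR-711. The background shares were 1.29% of detected miRNAs 2-fold lower and 0.551% 2-fold higher, and 94.9% lay within 1.5-fold.

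The sequences of these miRNAs and of their closest relatives are shown so that seeds can be compared, since miR-503-5p and both miR-322 arms come from 1 locus and miR-322-5p shares its seed with the miR-15/16 family. They are the mature sequences of RefSeq (build GRCm38.p6), 5′ to 3′, with the seed in capitals. Of the 1898 probe names 1616 had a RefSeq mature sequence, and of the 544 detected on both arrays 450. Sequences of 6 of the 7 lower miRNAs come first.
miR-140-3p: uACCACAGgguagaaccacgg
miR-146b-5p: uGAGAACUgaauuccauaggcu
miR-503-5p: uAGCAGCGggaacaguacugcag
miR-322-5p: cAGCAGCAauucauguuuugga
miR-322-3p: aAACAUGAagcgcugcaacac
miR-708-5p: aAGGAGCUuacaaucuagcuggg

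Relatives that share the seed of miR-322-5p, or that of other lower families, follow.
miR-15b-5p: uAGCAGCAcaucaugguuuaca
miR-16-5p: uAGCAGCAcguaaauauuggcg
miR-30a-5p: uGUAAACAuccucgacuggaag
miR-30c-5p: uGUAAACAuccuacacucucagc
miR-99a-5p: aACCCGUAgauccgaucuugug
miR-100-5p: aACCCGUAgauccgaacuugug
let-7a-5p: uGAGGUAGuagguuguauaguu

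The 3 higher miRNAs are followed by 3 others described below.
miR-7036a-5p: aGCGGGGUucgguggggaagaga
miR-6913-5p: uGGGAGACcagucagguguugg
miR-711: gGGACCCGgggagagauguaag
miR-31-5p: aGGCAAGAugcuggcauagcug
miR-21a-5p: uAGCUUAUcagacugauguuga
miR-6412: uCGAAACCauccucagcuacua

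Signals are spot medians in intensity units, with 1 spot per miRNA. A miRNA counted as detected when its signal passed a limit taken from the array's blank spots (their mean plus 2 SD), which was 86.9 units on the Wnt4 array and 81.7 on the Wnt3a array. The 5 brightest miRNAs were miR-125b-5p, miR-6366, miR-2137, miR-3968 and miR-1902 on the Wnt4 array, and on the Wnt3a array miR-21a-5p took the place of miR-125b-5p. The signal exceeded the limit for 547 miRNAs on the Wnt4 array and 1063 on the Wnt3a array. Log2 differences are Wnt3a minus Wnt4 after background correction with an offset and quantile normalization of all 4 arrays, and the offset shrinks the folds of dim signals. Spot noise gave a standard error (SE) of 0.13 for a difference, from 5 bright control probes with 8 spots each before normalization between arrays. It was not estimated for dim signals, and it covers neither hybridisation nor culture. Before normalization those 5 control probes were higher on the Wnt3a array by a mean log2 of 0.08, and the signal was higher there for 84.7% of detected miRNAs, with a median ratio of 1.19. After quantile normalization the median of all 544 differences was 0.01 and the SD 0.32, with 281 above 0 and 255 below. The share above 0 was 51.7% here, 68.4% with scaling to the median and 74.1% with scaling on the bright control probes. It was 82.5% without normalization between arrays. In the authors' deposited table it was 98.6%, over the 564 miRNAs compared there.

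**Figure D1:**
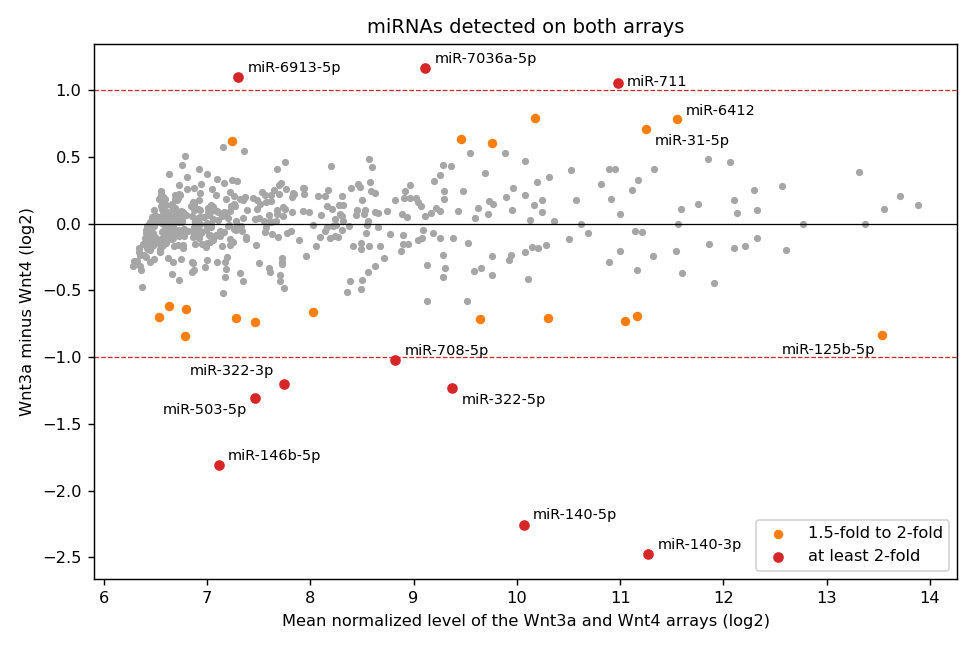
Each point is 1 of the 544 miRNAs detected on both arrays, with its mean normalized level (log2, x axis) and its Wnt3a minus Wnt4 difference (log2, y axis). Dashed lines mark 2-fold. Both miR-140 arms lie lowest, at -2.48 and -2.26, and the 3 miRNAs above the upper line lie between 1.06 and 1.16.

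miR-140 is abundant in cartilage, and its gene lies within Wwp2, which encodes a ubiquitin ligase, on chromosome 8. The signal of miR-140-3p was 5582 units on the Wnt4 array and 1135 on the Wnt3a array, against 7049 on the GFP array and 5727 on the Wnt5a array. That of miR-140-5p was 2096 with Wnt4 and 535 with Wnt3a, against 2379 with GFP and 2142 with Wnt5a. The Wnt3a array was thus the low one for both arms, and the other 3 arrays lay close together. The log2 differences were -2.48 and -2.26 (SE 0.13), or 5.57-fold and 4.78-fold lower. Across the other scalings between arrays miR-140-3p ran from -2.50 to -2.31 and miR-140-5p from -2.22 to -1.99. The authors' deposited table has a median of 1.74 over all 564 miRNAs compared there, and miR-140-5p was under 2-fold in it, at -0.91. With each spot's background column used in the correction, miR-140-3p was at -0.12.

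The X-linked cluster of miR-322, miR-503, miR-351 and miR-450a gave 3 of the 7 lower miRNAs. In RefSeq GRCm38.p6 its genes span chrX:53047997-53054349, and those of miR-322, miR-351 and miR-503 lie on the minus strand within the span of the non-coding gene C430049B03Rik. miR-322 and miR-503 are known to restrain cell cycle genes such as cyclins. The signal of miR-503-5p was 248 units with Wnt4 and 130 with Wnt3a, against 285 with GFP and 281 with Wnt5a. For miR-322-5p it was 903 with Wnt4 and 475 with Wnt3a, against 990 with GFP and 1126 with Wnt5a. For miR-322-3p it was 292 with Wnt4 and 159 with Wnt3a, against 326 with GFP and 299 with Wnt5a. For all 3 the Wnt3a array was the lowest of the 4. The differences were -1.30, -1.23 and -1.20, or 2.47-fold, 2.34-fold and 2.29-fold lower. Without normalization between arrays miR-322-5p was at -0.95 and miR-322-3p at -0.94, under 2-fold. In the deposited table, where the median over all miRNAs was 1.74, miR-322-5p was above 0 (0.17). With the background column miR-322-5p (0.69) and miR-322-3p (0.075) were both above 0. miR-503-5p was under 2-fold in both, at -0.38 and -0.79.

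Of 13 probes for the cluster, 6 were detected on both arrays, and 6 of 6 were below 0, with a median of -0.97 against 0.01 for all miRNAs. The list median was above 0 in the authors' deposited table, as was the median over all miRNAs, and relative to that median it was below under all 14 alternatives. miR-450a-5p was at -0.71 and miR-351-5p at -0.74. miR-351-3p stood apart from its partner arm, at -0.10, and its signal before normalization was 1.09 times as high with Wnt3a as with Wnt4. Neighbouring miRNA genes were grouped where adjacent ones lay within 10 kb, and miRNAs encoded in more than 1 group were left out. Among 16 such groups with at least 3 detected members, this cluster had the lowest median. The next was that of miR-30e and miR-30f on chromosome 4, at -0.51 over 3 members. The cluster of miR-17, miR-18a, miR-19a and miR-20a on chromosome 14 had 5 of 5 above 0 and a median of 0.18.

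miR-146b-5p belongs to a family induced by NF-kappaB that dampens innate immune signalling. Its signal was 232 units with Wnt4, 299 with GFP and 303 with Wnt5a, but 86.3 with Wnt3a, close to the limit of 81.7. The difference of -1.81 (3.50-fold lower) thus rests on a dim Wnt3a value, and with the limit at 5 SD of the blank spots the miRNA was no longer detected on both arrays. With the background column it was at 0.013. The related immune miRNA miR-155-5p went the other way. It was detected with Wnt3a alone, at 135 units against 69.9 with Wnt4, 96.8 with GFP and 86.6 with Wnt5a, so the normalized Wnt3a level was higher by a factor of at least 1.36.

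miR-708-5p, whose gene lies within Tenm4, had 568 units with Wnt4 and 356 with Wnt3a, against 658 with GFP and 676 with Wnt5a. At -1.02 it was the last inside the 2-fold line, and it was under 2-fold in 7 of 14 alternatives, among them scaling to the median and on the bright control probes. It was above 0 in the deposited table (0.42), where the median over all miRNAs was 1.74, and with the background column (0.45). Its partner arm miR-708-3p was at -0.34, with dim signals of 92.4 and 85.2. The next miRNA outside the line was miR-204-5p, reported to target Runx2, at -0.84, with 139 units on the Wnt4 array and 96.6 on the Wnt3a array. miR-204-3p from the same hairpin was at 0.02.

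**Figure D2:**
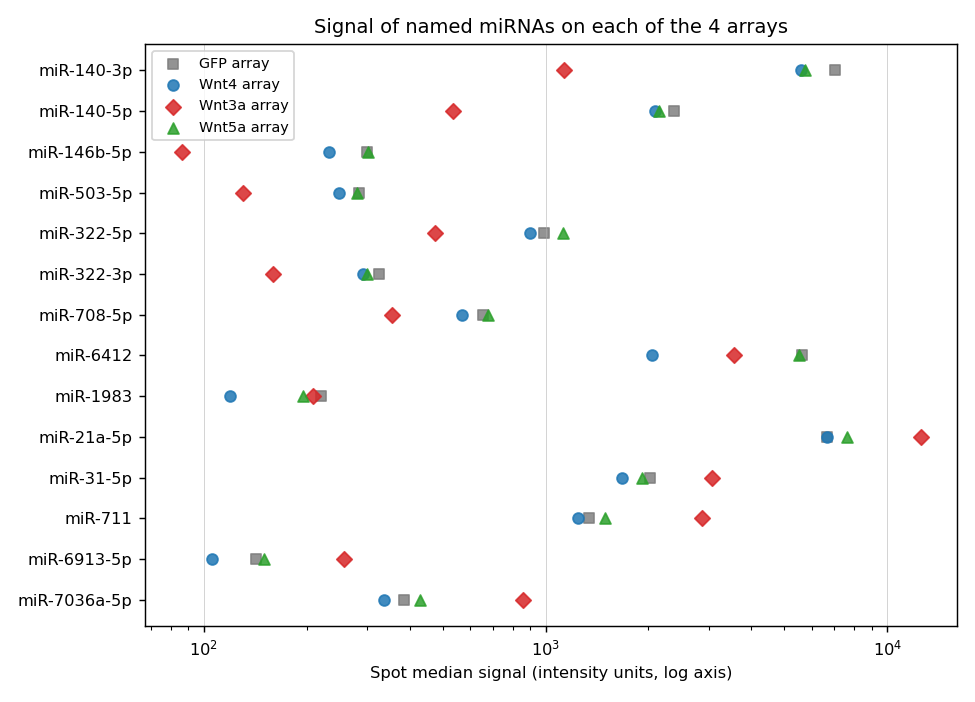
Spot median signal (intensity units, log axis) of 14 named miRNAs on each of the 4 arrays, with 1 symbol per array. The Wnt3a symbol stands below the other 3 arrays for the 7 miRNAs at the top and above them for miR-711, miR-6913-5p and miR-7036a-5p, while for miR-6412 the Wnt4 symbol is the lowest.

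On the normalized scale, the Wnt3a value was the lowest of the 4 arrays for 7 of the 7 miRNAs that were 2-fold lower and the highest for 3 of the 3 that were 2-fold higher. The Wnt4 value was the highest of the 4 for 3 of those 7 and the lowest for 1 of those 3. Over all 544 miRNAs the Wnt3a value was the lowest for 153 and the highest for 193. The Wnt4 value was the lowest for 112 and the highest for 134. The GFP, Wnt4 and Wnt5a values of the 7 lower miRNAs lay within a log2 span of 0.05 (miR-708-5p) to 0.35 (miR-140-3p). Normalization involved all 4 arrays, and with the Wnt3a and Wnt4 arrays normalized alone 7 were lower and 2 higher, since miR-711 fell just short of 2-fold.

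Differences from 1.5-fold to 2-fold toward lower Wnt3a values were found for 12 more miRNAs, which brings the share at least 1.5-fold lower to 3.49%. Together with miR-351-5p, miR-450a-5p and miR-204-5p they were miR-125b-5p at -0.84, miR-99a-5p at -0.73, miR-30a-5p at -0.72, miR-30c-5p at -0.71, miR-3544-3p at -0.70, miR-100-5p at -0.69, miR-193b-3p at -0.66, miR-196a-5p at -0.64 and miR-182-5p at -0.62. On the normalized scale the Wnt3a array was the lowest of the 4 for 10 of these 12, and the Wnt4 array was the highest for 11. That ranking of Wnt4 is one after quantile normalization. Before it, the Wnt4 signals of miR-99a-5p, miR-100-5p, miR-30a-5p and miR-30c-5p lay below those of both GFP and Wnt5a. The 2 for which Wnt3a was not the lowest were miR-3544-3p and miR-182-5p, whose Wnt4 signal was the highest of the 4. miR-3544-3p, whose gene lies within the span of Rtl1 on chromosome 12, had 116 units with Wnt4, against 85.4 with Wnt3a, 90.2 with GFP and 94.1 with Wnt5a. miR-182-5p had 120 units with Wnt4, against 94.3, 111 and 93.5 in the same order. Both sets of signals were dim.

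miR-125b-5p, which restrains differentiation in several cell types, was the brightest miRNA on the Wnt4 array, at 12399 units, and had 11306 on the Wnt3a array. Its -0.84 came with quantile normalization. It was at -0.25 with scaling to the median, -0.17 with cyclic loess and -0.13 without normalization between arrays. It was above 0 in the deposited table (1.08), where the median over all miRNAs was 1.74, and with the background column (1.39).

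The families of miR-99 and miR-100, with reported targets in the mTOR pathway, share the seed ACCCGUA. miR-99a-5p had 2423 units with Wnt4 and 1736 with Wnt3a, and miR-100-5p 2599 and 1877. The GFP and Wnt5a arrays gave 2534 and 2432 for miR-99a-5p and 2848 and 2944 for miR-100-5p, so the Wnt3a array was again the lowest of the 4. miR-99b-5p, with the same seed but encoded beside let-7e and miR-125a on chromosome 17, was at -0.23. The list of miR-125, miR-99 and miR-100 members put 6 of its 8 detected members under 0 (median -0.25), with miR-125a-3p at 0.38. That median was above 0 in the deposited table and with the background column. Relative to the median of all miRNAs, only the background column put it above 0.

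The miR-30 family has reported targets in Runx2 and Smad1, both central to bone formation. All 7 of its detected members, of 11 probes, were below 0 and 2 were at least 1.5-fold lower, with a median of -0.52. In the authors' deposited table the median was above 0, but it stayed below that of all miRNAs under all 14 alternatives. miR-30c-5p had 1461 units with Wnt4 and 1088 with Wnt3a, against 1509 with GFP and 1726 with Wnt5a. miR-30a-5p had 913 and 690, against 1002 and 1001. miR-30d-5p, at -0.58, lay just under 1.5-fold, and miR-30b-5p was the nearest to 0 at -0.33. Of the members with a RefSeq sequence, miR-30a-5p, miR-30c-5p and miR-30e-5p carry the seed GUAAACA and had a median of -0.71.

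The seed AGCAGCA is carried by miR-322-5p and by miR-15a-5p, miR-15b-5p, miR-16-5p, miR-195a-5p and miR-497a-5p, miRNAs that also target cell cycle genes. All 6 were below 0, with a median of -0.39, but miR-322-5p was the only one past 1.5-fold. miR-15b-5p was at -0.49, with 394 units on the Wnt4 array and 340 on the Wnt3a array. miR-16-5p, the brightest of them with 3671 and 3374 units, was at -0.15, near the spot-noise SE. miR-503-5p, from the same X-linked cluster as miR-322-5p, has the seed AGCAGCG. As a list with both arms of miR-322, the miR-15/16 family had a median of -0.43, which was above 0 in the deposited table and with the background column. Relative to the median of all miRNAs, it was above 0 with the background column alone.

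The let-7 family, which promotes differentiation, and the miR-29 family, which targets collagens, were lower by small amounts. For let-7 and miR-98, 12 of 12 detected members lay under 0 (median -0.20), and 0 were past 1.5-fold. The bright let-7a-5p had 5710 units with Wnt4 and 4971 with Wnt3a and was at -0.19. The lowest member was let-7j, at -0.58, whose seed GAGGUAU differs from the GAGGUAG of let-7a-5p. The 10 detected members with the seed GAGGUAG were all under 0, the lowest being let-7d-5p at -0.44. The probe for let-7a-1-3p and let-7c-2-3p, also counted, was dim (92.3 units with Wnt4 and 94.9 with Wnt3a). The 3 detected miR-29 members were at -0.11 (miR-29c-3p), -0.24 (miR-29a-3p) and -0.38 (miR-29b-3p). In the deposited table both list medians were above 0, and relative to all miRNAs both were below under all 14 alternatives. Probes of let-7 members with few differing bases can cross-hybridise, so these members are not independent measurements.

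**Figure D3:**
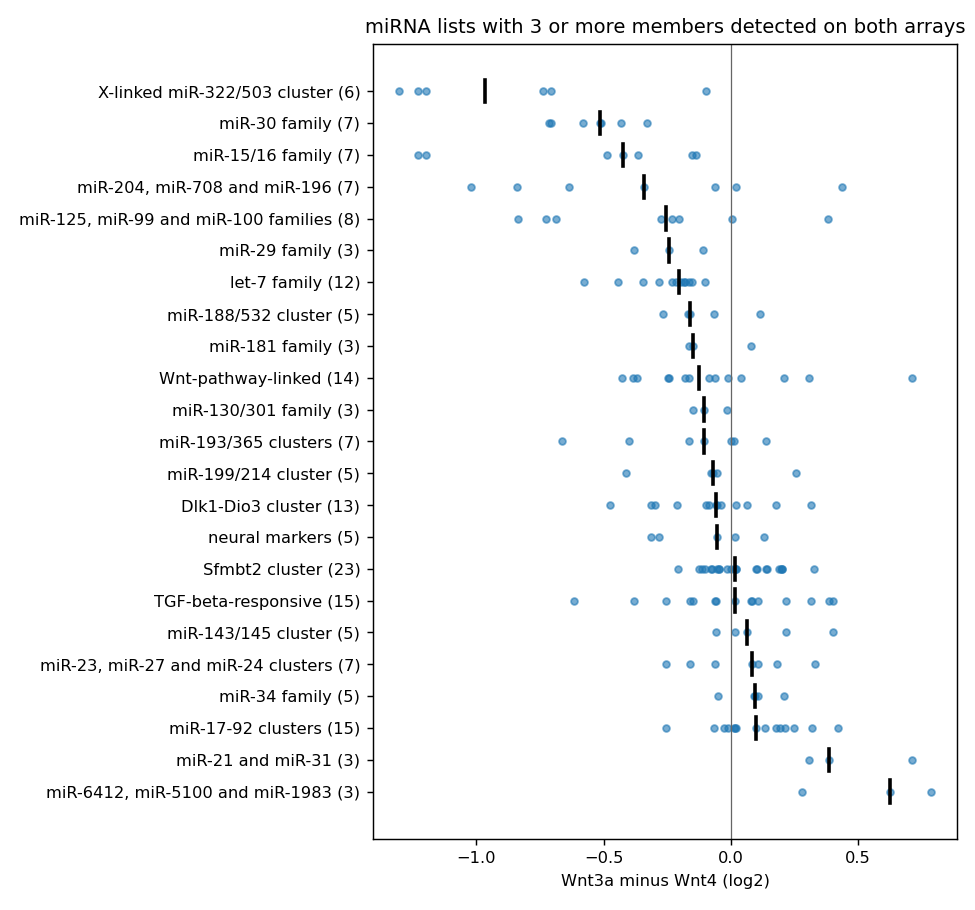
Wnt3a minus Wnt4 differences (log2, x axis) of the detected members of each miRNA list with 3 or more such members, 1 point per miRNA, with the list median as a bar and the number of members in brackets. Among the lists shown, the X-linked cluster has the lowest median, -0.97, and the miR-30 family has -0.52. Medians of the X-linked cluster, miR-30 and let-7 are above 0 only in the deposited table, where the median over all miRNAs was 1.74. Several medians nearer 0 change sign between scalings.

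The 3 miRNAs at least 2-fold higher with Wnt3a lie within protein-coding genes. miR-7036a-5p, in Srrt on chromosome 5, had 337 units with Wnt4 and 856 with Wnt3a, against 385 with GFP and 428 with Wnt5a, and its difference was 1.16. Its partner arm miR-7036a-3p was at 0.01. miR-6913-5p, in Dohh on chromosome 10, had 105 units with Wnt4 and 256 with Wnt3a, against 142 and 150, and its difference was 1.10. miR-711, in Col7a1 on chromosome 9, had 1247 units with Wnt4 and 2865 with Wnt3a, against 1336 and 1494, and its difference was 1.06. The Wnt3a array was the highest of the 4 for each. The Wnt4 signal of miR-6913-5p was dim, and with the limit at 5 SD it was not counted. miR-711 was at 0.99 with cyclic loess and also just short of 2-fold with the 2 arrays normalized alone. With the background column miR-711 was at -3.05, miR-6913-5p at -0.52 and miR-7036a-5p at 0.22.

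A further 6 were between 1.5-fold and 2-fold higher, so that 1.65% were at least 1.5-fold higher. They were miR-6769b-5p and miR-6412, both at 0.79, miR-31-5p at 0.71, miR-7047-5p at 0.63, miR-1983 at 0.62 and miR-6937-5p at 0.60. miR-31-5p, reported to act on osteogenic regulators, had 1670 units with Wnt4 and 3071 with Wnt3a, against 2017 with GFP and 1917 with Wnt5a. Its partner arm miR-31-3p was at 0.30, whereas miR-6937-3p, the partner arm of miR-6937-5p, was at -0.12.

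Among these 6, the normalized Wnt4 value was the lowest of the 4 arrays for 3 and the Wnt3a value was the highest for 4. For 2 of the 6, miR-6412 and miR-1983, the Wnt4 value was the lowest and the Wnt3a value was not the highest. On the signal scale miR-6412 had 2042 units with Wnt4 and 3553 with Wnt3a, but 5631 with GFP and 5529 with Wnt5a, so that both Wnt arrays compared here lay under the other 2 arrays. miR-1983 had 119 units with Wnt4, against 209 with Wnt3a, 221 with GFP and 194 with Wnt5a. miR-5100, at 0.28, followed the same order as miR-6412, with 5039 units under Wnt4, 7513 under Wnt3a, 8331 under Wnt5a and 9960 under GFP.

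miR-21a-5p, an abundant miRNA whose gene lies within Vmp1, differed between the scalings. Its signal was 6673 units with Wnt4 and 12510 with Wnt3a, against 6669 with GFP and 7619 with Wnt5a. The difference was 0.39 after quantile normalization, 0.79 with scaling to the median, 0.83 with cyclic loess and 0.91 without normalization between arrays. It was below 0 with the background column and above 0 in the other 13 alternatives.

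**Figure D4:**
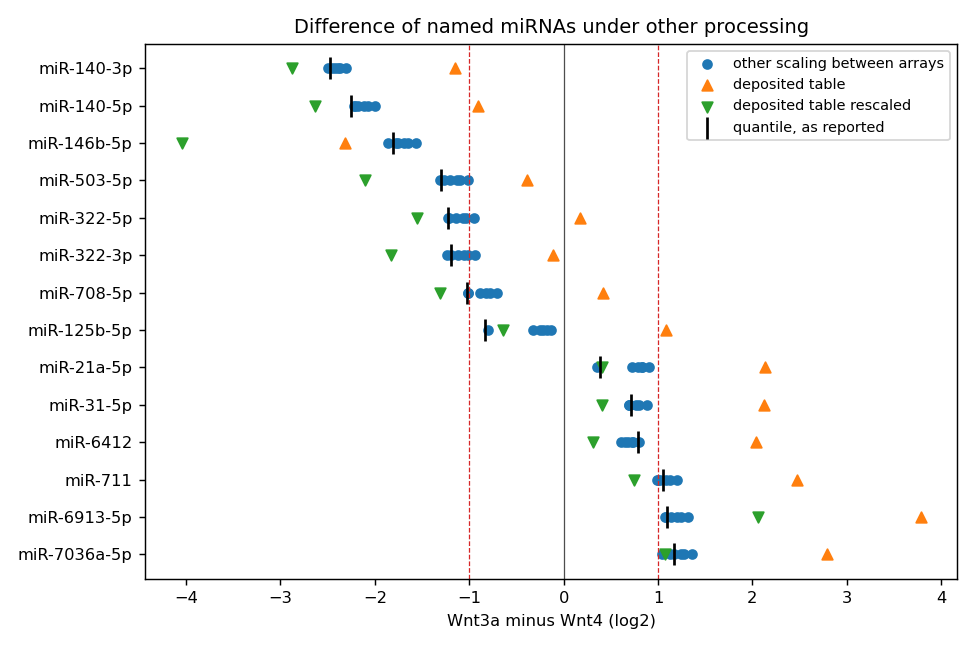
Wnt3a minus Wnt4 difference (log2, x axis) of 14 named miRNAs as reported (black bar), under 6 other scalings between arrays (blue), in the authors' table as deposited (orange) and after rescaling it on the miRNAs it lists for every array (green). Dashed lines mark 2-fold. miR-140-3p lies past the line throughout, while miR-322-5p is at 0.17 in the deposited table, where the median over all miRNAs was 1.74.

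miR-2861 and miR-3960, reported to promote osteoblast differentiation in mouse, were at 0.46 and 0.41, with 3073 and 1468 units on the Wnt4 array and 4324 and 2309 on the Wnt3a array. The miR-17-92 clusters, which are linked to proliferation, counted 11 higher and 4 lower members (median 0.10), led by miR-20b-5p at 0.42 and miR-17-5p at 0.32. miR-143 and miR-145a are encoded together and known to be induced by TGF-beta. Their list, which also holds miR-145b, had 4 of 5 probes above 0 (median 0.06), with miR-143-3p at 0.40. The median over the 15 detected TGF-beta-responsive miRNAs was 0.02, which changed sign between scalings, with miR-182-5p at -0.62 at one end and miR-143-3p at the other. The 14 Wnt-pathway-linked miRNAs had 10 below 0 and a median of -0.13, which was above 0 on the bright control probes and without normalization between arrays. Of these, miR-31-5p was past 1.5-fold and miR-374b-5p, at -0.43, was the lowest.

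Medians within 0.17 of 0 were found for miR-188 with miR-532 and their neighbours (-0.16 over 5 members), the miR-181 family (-0.15 over 3), miR-130 with miR-301a (-0.11 over 3), miR-193 with miR-365 (-0.10 over 7), miR-214 with miR-199 (-0.07 over 5), the Dlk1-Dio3 cluster (-0.06 over 13), the Sfmbt2 cluster (0.02 over 23), the miR-24 group with miR-23 and miR-27 (0.08 over 7) and the miR-34 family (0.09 over 5). Of these, the Sfmbt2 median was above 0 in all 14 alternatives and the others changed sign in at least 1. The Sfmbt2 median was only 0.003 above that of all miRNAs, however. It lay below that median when scaled to the median, the upper quartile or the bright control probes. The same held without normalization between arrays and with the limit at 5 SD. miR-221-3p and miR-222-3p were at -0.31 and -0.26.

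Markers of other cell types were counted against the share of all probes detected, 28.8% with Wnt4 and 56.0% with Wnt3a. On the Wnt4 array 0 of 2 liver, 0 of 4 endothelial, 0 of 12 epithelial, 1 of 10 blood cell, 1 of 24 pluripotency, 2 of 17 muscle and 5 of 22 neural probes passed the limit. On the Wnt3a array the counts were 0, 2, 5, 4, 9, 4 and 14 in that order. The brightest were miR-128-2-5p of the neural list, with 247 units on the Wnt4 array and 331 on the Wnt3a array, and miR-290a-5p of the pluripotency list, with 268 and 329. Their part in the differences was not tested. By contrast 5 of 5 probes each of 2 mesenchymal lists, miR-214 with miR-199 and miR-143 with miR-145a and miR-145b, were detected on both arrays. On the Wnt4 array miR-143-5p (90.2 units) and miR-145a-3p (90.7) were close to the limit of 86.9. For miR-21a, also taken as a mesenchymal marker, the 5p arm was detected on both arrays. Its 3p arm was detected on the Wnt3a array alone, with 76.5 units on the Wnt4 array.

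Base composition moved with the differences. Across the 450 miRNAs with a sequence, the percentage of G and C bases correlated with the difference at Pearson's r of 0.34 and Spearman's rho of 0.40. These points come from the same 2 arrays and include families with near-identical sequences, so this is a description. The median difference was -0.16 for 33 miRNAs under 40% G and C, -0.09 for 77 from 40% to under 50%, -0.04 for 125 from 50% to under 60% and 0.07 for 215 at 60% or more. The median composition was 38.6% for let-7, 36.4% for miR-29, 42.9% for miR-15/16 and 45.5% for miR-30 members, all in the classes with lower medians. Its part in those list medians was not tested. The correlation was 0.36 when scaled on the bright control probes.

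**Figure D5:**
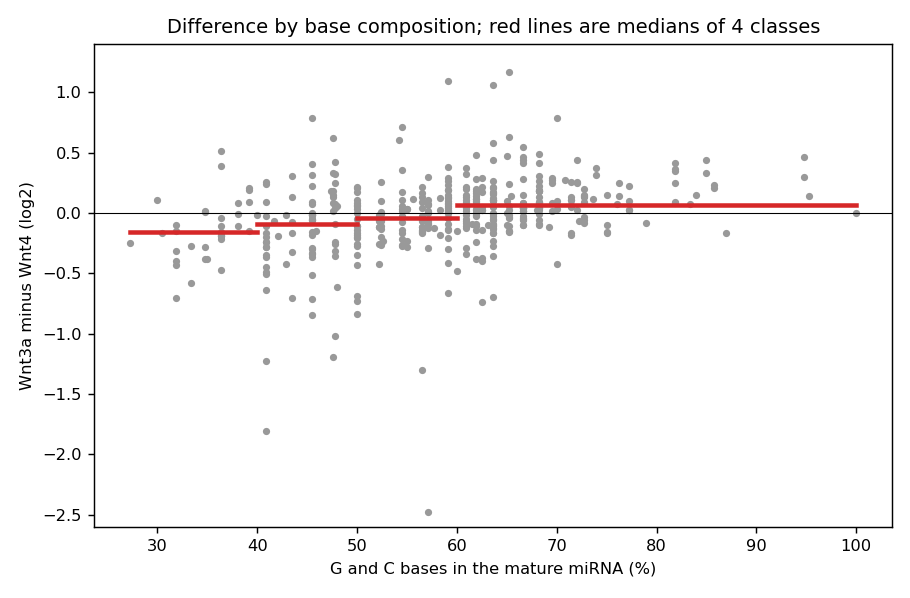
Wnt3a minus Wnt4 difference (log2, y axis) against the percentage of G and C bases in the mature miRNA (x axis) for 450 miRNAs. Red lines are class medians and go from -0.16 under 40% to 0.07 at 60% or more, while the miRNAs past 2-fold lie far outside that range.

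The number in a miRNA's name, which follows the order of registration, went along with this. Of 249 miRNAs with a number under 1000, 39.4% were above 0 and 18 were at least 1.5-fold lower, against 2 at least 1.5-fold higher. Of 220 with a number of 5000 or more, 63.2% were above 0, 6 were at least 1.5-fold higher and 0 lower. Their median G and C content was 49.0% and 63.6%.

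Both arms of a hairpin were detected on both arrays in 61 cases, and the arms had the same sign in 40. The differences of the 2 arms correlated at Pearson's r of 0.74, which fell to 0.54 without miR-140 and to 0.41 over 59 pairs without miR-140 and miR-322. The arms come from 1 precursor and share the 2 arrays. miR-140 and miR-322 were the hairpins with both arms past 2-fold.

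Of the miRNAs detected on only 1 array, 519 were detected with Wnt3a and 3 with Wnt4. Their signals were dim, with a median of 87.1 units on the Wnt3a array, and 0 of these bounds reached 2-fold. After miR-155-5p, the brightest with Wnt3a alone were miR-3620-3p, miR-7044-3p, miR-7019-5p and miR-710, at least 1.22-fold, 1.16-fold, 1.14-fold and 1.14-fold higher. The GFP signal was above that of Wnt3a for miR-7044-3p (125 against 116 units), miR-7019-5p (123 against 114) and miR-710 (121 against 114). For miR-3620-3p it was below (112 against 122). The 3 with Wnt4 alone were miR-5615-5p, miR-192-5p and miR-380-5p. miR-5615-5p had 104 units with Wnt4 and 76.5 with Wnt3a, against 86.8 with GFP and 81.4 with Wnt5a, and on the normalized scale its Wnt4 level was at least 1.53-fold higher. The size of the imbalance, 519 against 3, depended on the limit. It was 445 against 8 with a limit from spots without probe and 237 against 3 with the limit at 5 SD. When the limit came from the negative control probes it was 53 against 18.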

How the data were processed

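RNA was labelled with Hy5 and read at 635 nm, per the labels' protocols and per the file headers. The deposited scanner files hold raw intensity as a spot median and a background median. Of 1900 miRNA probes, 2 marked not good on the GFP array were left out. The spot medians of all 4 arrays were corrected with normexp (offset 50), control spots were dropped, and the 1898 probes were quantile-normalized (limma 3.58.1, R 4.3.3). Counts, lists and plots were made in Python 3.11.15 with numpy 2.4.6, pandas 2.3.3 and matplotlib 3.10.9. The blank limit used the middle 95% of 896 blank spots.

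The authors' deposited intensity table equals the spot median less about the blank mean, times 1 factor per array (0.399 for Wnt4, 0.929 for Wnt3a, to within 0.0509 units), which sets the median listed value to about 25 over 568 and 1112 miRNAs.

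Named miRNAs were those at least 1.5-fold different, up to 15 more each way, the 5 brightest on 1 array alone, and list members with the highest level or largest difference. miR-21a-5p, miR-351-3p, miR-708-3p and some other family members were named after their values were seen. The miRNAs and lists were chosen with earlier results of these data known. For a miRNA detected on 1 array, the bound sets the bright value against the higher of the dim value and the lowest detected level of the dim array. Genes were looked up in RefSeq GRCm38.p6. The counting was tested on simulated data.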

Additional observations from a re-analysis of the deposited data

How the results depend on the processing

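Of the 7 lower and 3 higher miRNAs, all were still counted with no filter on dim probes. The lower count was 4 without normalization between arrays, where both miR-322 arms and miR-708-5p were under 2-fold. Plain subtraction of the blank mean gave 9 higher and 33 lower, among them all 10. The deposited table gave 526 higher and 2 lower (miR-140-3p and miR-146b-5p), and rescaled 19 and 18. In the table as deposited, whose median over all miRNAs was 1.74, miR-322-5p turned to 0.17 and miR-708-5p to 0.42. The background column, added after seeing the data, gave 36 higher and 21 lower and turned miR-146b-5p to 0.013, miR-322-5p to 0.69, miR-322-3p to 0.075, miR-708-5p to 0.45, miR-711 to -3.05 and miR-6913-5p to -0.52. It left miR-140-5p as 1 of the 10 still called, with miR-140-3p at -0.12. The cause of these changes was not tested. That column correlated with the spot's own log2 signal at 0.985 on the Wnt4 array and 0.966 on the Wnt3a array. miRNAs detected on the Wnt3a array numbered 623 under a 5 SD limit and 507 under one set by the negative control probes, against 389 and 472 on the Wnt4 array. The remaining alternatives gave 2 or 3 higher and 6 to 9 lower. No paired analysis was possible because each group had 1 array. Signals near the blank level limit the dim miRNAs, and the number of arrays limits the precision.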
